A study of Mus musculus with 16 samples.

Results

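The sciatic nerve of *Becn1* conditional knockout (cKO) mice was compared between postnatal day 10 (P10) and 2 months of age. The comparison used 8 of the 16 arrays of the series, 4 from cKO nerves at P10 and 4 from cKO nerves at 2 months, and it covered 19505 genes, which are all genes with a symbol in the array annotation. A gene with several transcript clusters, the units in which the array reports a transcript, took the values of its cluster of highest mean. The other 8 arrays came from control nerves, 4 at each age, and were used to ask whether the change with age was the same without the deletion. The cKO mice carried *Becn1* fl/fl alleles and a Cre recombinase transgene that is active in Schwann cells. The controls, labelled wild-type in the records, were *Becn1* fl/fl or *Becn1* fl/+ mice without Cre. A floxed allele was therefore common to all groups, and fibroblasts, endothelial cells, immune cells and axons of the cKO nerve were not targeted. Each array held RNA from 1 sample, and nothing in the records says whether the 4 arrays of a group were separate animals, so the p-values measure the spread between these arrays.

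*Becn1* encodes Beclin 1, a part of the lipid kinase complex that forms autophagosomes and serves endosomal traffic. In the normal nerve the first weeks after birth are the time of myelination. Schwann cells stop dividing, wrap axons and make large amounts of myelin proteins and lipids, and by young adulthood this synthesis slows while collagen production and growth programmes of the newborn end. Macrophages and other immune cells are sparse in the healthy adult nerve, and they enter it in numbers when myelin breaks down.

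Expression values were log2 robust multiarray averages (RMA), and all changes are 2 months minus P10 on that scale, so that a change of 1 is a doubling. Within an age the cKO arrays correlated at 0.986 to 0.993 at P10 and 0.990 to 0.994 at 2 months, and between ages at 0.957 to 0.967. The first principal component of the 8 arrays held 78.5% of their variance and separated the ages. Replicate 3 at P10 stood apart on the second component, at -19.66 against 3.28 to 10.70 for the other P10 arrays, and its skeletal muscle genes were the lowest of that age. The Y-linked gene *Uty* was high in replicates 1 and 2 and low in replicates 3 and 4 at both ages, at 8.58, 8.38, 3.11 and 2.95 at P10 and 8.32, 8.68, 3.46 and 3.24 at 2 months, so the ages held the same mix of sexes. Control arrays split the same way in the mean of the measured sex-linked genes. It was 8.05 to 8.75 in replicates 1 and 2 and 3.02 to 3.71 in replicates 3 and 4. Schwann cell, macrophage, fibroblast and endothelial markers were all present in the nerve. *Sox10*, a lineage factor of Schwann cells, lay at 9.70 to 10.15 at P10 and 9.34 to 9.65 at 2 months, and *Dcn*, a fibroblast proteoglycan, at 12.05 to 12.17 at P10 and 12.90 to 13.03 at 2 months.

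*Becn1* itself measured 8.21, 8.12, 8.30 and 8.39 at P10 and 8.24, 8.23, 8.18 and 8.10 at 2 months. The ages overlapped, and the change was -0.07 (standard error 0.09, adjusted p = 0.622). The position of its probes relative to the deleted exons is not known here, so the gene says little on the genotype labels. The autophagy receptor p62 is the product of *Sqstm1*, which measured 10.72, 10.88, 11.09 and 11.27 at P10 and 11.23, 11.23, 11.14 and 11.20 at 2 months. Its ages overlapped as well, with a change of 0.21 (adjusted p = 0.158). Without P10 replicate 4, the highest of its age, the change was 0.30 and passed the test (adjusted p = 0.0253).

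With age, 3352 genes were higher in cKO nerves and 3021 were lower at an adjusted p below 0.05, which is 17.2% and 15.5% of the genes tested. These shares are the background against which the counts of each gene group are read. For the counts given for control nerves the background is 12.1% higher and 12.6% lower, and for interactions, the tests of a difference between the genotypes, it is 7.69% upward and 4.59% downward. With a change of at least 1 the numbers were 668 (3.42%) higher and 369 (1.89%) lower. The 4 arrays at 2 months lay wholly above those at P10 for 3164 genes (16.2%) and wholly below for 3052 (15.6%). The median change over all genes was -0.05. Immune and antigen-presentation genes stood at the high end of the gene groups, and cell division, myelin and collagen genes at the low end.

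**Figure D1:**
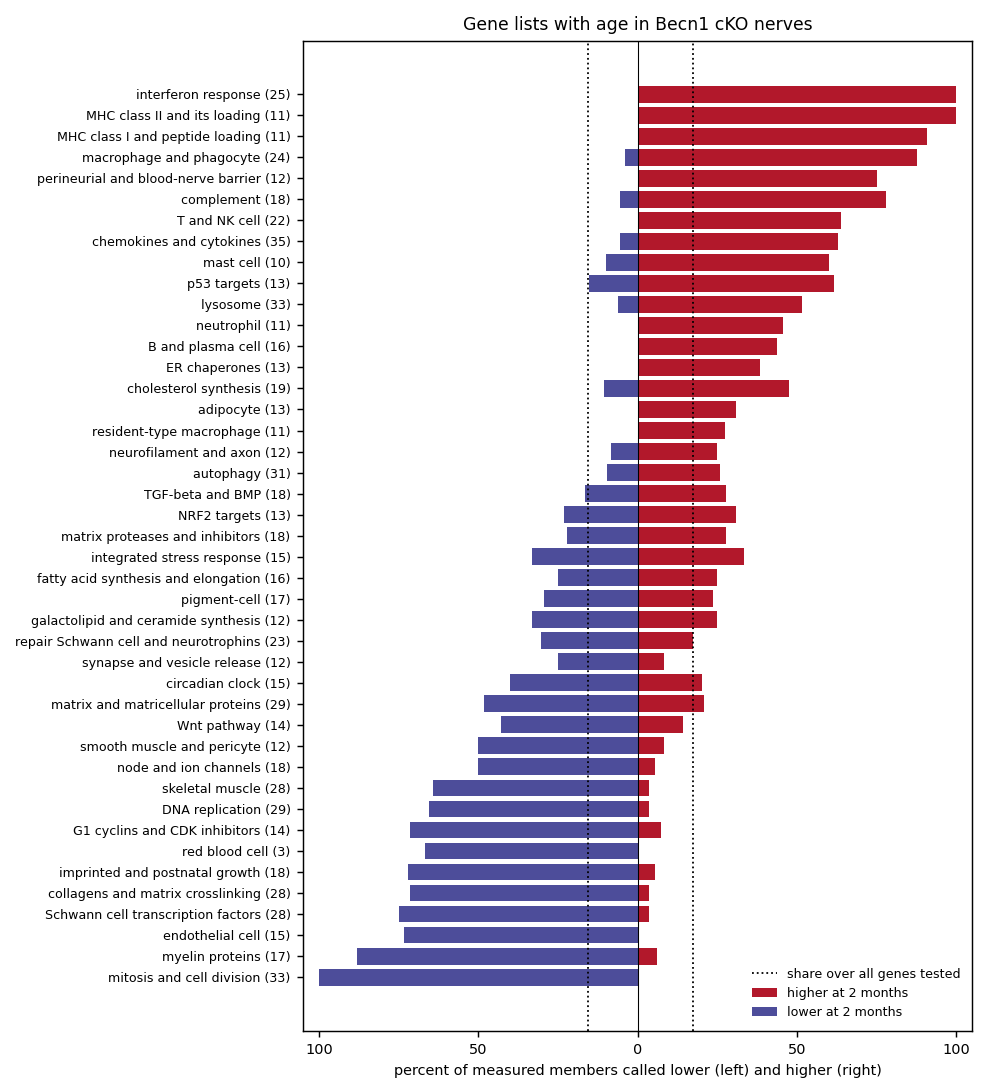
Share of the measured members of each gene list that were called lower (bars to the left) and higher (bars to the right) at 2 months than at P10 in cKO nerves, in percent, with the number measured in parentheses. Dotted lines mark the shares over all genes tested, 15.5% lower and 17.2% higher. All 25 interferon response genes were higher and all 33 mitosis genes were lower.

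The largest rise of all belonged to *Jchain*, the joining chain that plasma cells add to polymeric antibodies. It measured 3.95, 3.33, 3.52 and 3.72 at P10 and 10.75, 10.37, 9.77 and 10.59 at 2 months, a rise of 6.74 (standard error 0.19, adjusted p = 2.26e-12). The ages were far apart. A gene counted among the largest rises or falls only if its cKO arrays did not overlap between the ages, so that separation was set by the rule. In control nerves *Jchain* lay at 3.53 to 4.42 at P10 and 3.95 to 7.33 at 2 months, with overlap between the ages.

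*Syt4*, a synaptotagmin of membrane traffic, rose by 4.59 (standard error 0.17, adjusted p = 5.93e-11). It measured 5.58, 6.35, 5.80 and 6.13 at P10 and 11.06, 10.28, 10.45 and 10.44 at 2 months. *Serpina3n*, an inhibitor of serine proteases known from injured and inflamed tissue, rose by 4.45, and control nerves changed almost as much, by 4.08. Several genes of white blood cells were among the 15 largest rises. *Lyz2*, the lysozyme of phagocytes, measured 7.80, 7.45, 7.87 and 8.35 at P10 and 11.93, 11.72, 11.57 and 11.56 at 2 months. *Mpeg1*, which encodes the pore-forming perforin-2 of macrophages, measured 6.23, 6.21, 6.08 and 6.78 at P10 and 10.37, 9.95, 10.01 and 9.91 at 2 months. *Ctss*, a lysosomal protease that trims antigen for presentation, measured 7.89, 7.86, 8.18 and 8.33 at P10 and 11.80, 11.39, 11.47 and 11.47 at 2 months. For all these genes the lowest 2-month array exceeded the highest P10 array by a wide margin.

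*Slamf7*, a receptor of plasma and natural killer cells, rose by 4.23, and *Clec12a*, an inhibitory receptor of myeloid cells, by 3.80. *Arhgap15*, a regulator of Rac in leukocytes, rose by 3.40. The interferon-inducible genes *Tgtp2* and *Ifi213* rose by 3.76 and 3.53. *Cpxm2*, a secreted carboxypeptidase-like protein, rose by 3.36 in cKO and by 2.79 in control nerves. The major urinary protein genes *Mup19*, *Mup9* and *Mup22* rose by 4.74, 4.24 and 4.20, and in controls by 6.01, 5.38 and 4.95. Their 2-month cKO arrays were widely spread, at 7.41 to 10.76 for *Mup19*, and these genes are so alike in sequence that their signals cannot be separated with confidence.

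**Figure D2:**
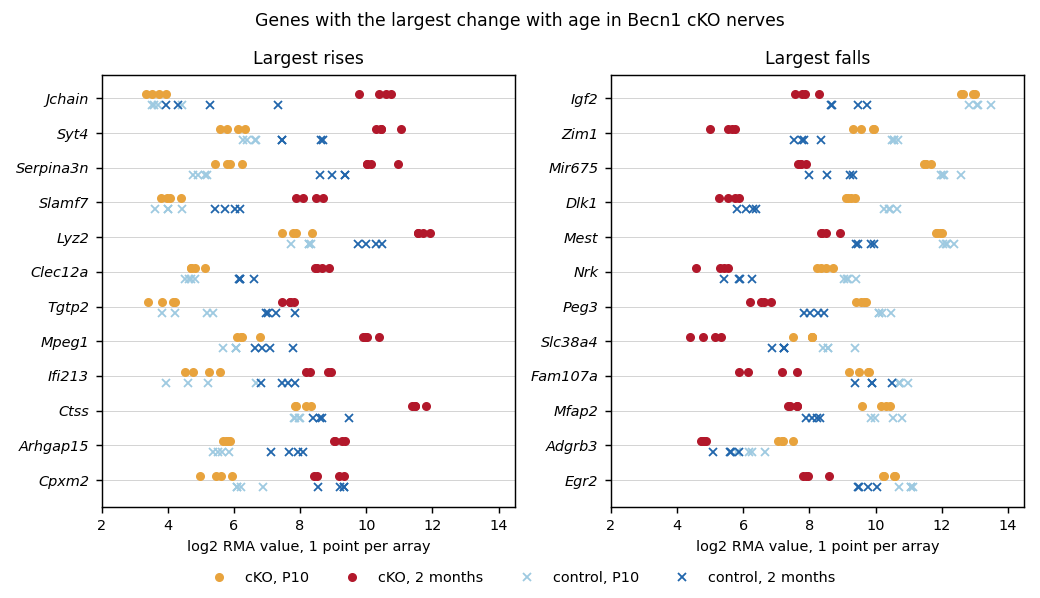
Log2 RMA values of 12 genes among the largest rises (left) and 12 among the largest falls (right) with age in cKO nerves, with 1 point per array and control arrays as crosses. Genes were taken only if the cKO arrays of the 2 ages did not overlap, so the separation in all 24 was set by that rule.

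Imprinted genes of fetal and early postnatal growth were among the largest falls. *Igf2*, the growth factor insulin-like growth factor 2, measured 12.95, 13.02, 12.59 and 12.65 at P10 and 7.87, 8.28, 7.79 and 7.58 at 2 months, a change of -4.92 (standard error 0.14, adjusted p = 2.26e-12). *Dlk1*, a membrane-bound inhibitor of differentiation, measured 9.24, 9.10, 9.15 and 9.39 at P10 and 5.86, 5.73, 5.53 and 5.27 at 2 months. *Mest*, a hydrolase-like protein of growing tissue, fell by 3.37 and the zinc finger genes *Zim1*, *Peg3*, *Plagl1* and *Zdbf2* changed by -4.20, -3.03, -1.93 and -2.28. Of 18 measured members of the imprinted and postnatal growth list, 13 were lower and 1 was higher, and the median change was -0.87. The fall also took place in control nerves, where 12 were lower with a median of -0.85. For *Igf2* it was larger in cKO nerves, by -0.95, and for *Dlk1* smaller, by 0.68, both of which passed the interaction test that asks whether the change with age differs between the genotypes. The *Igf2* call was lost without cKO P10 replicate 1 or 2, cKO 2-month replicate 1, 3 or 4, control P10 replicate 1, 2 or 3, or control 2-month replicate 3 or 4, at interactions of -0.95 to -0.75 and adjusted p of 0.0555 to 0.0807. The *Dlk1* call was lost without cKO P10 replicate 2, cKO 2-month replicate 1 or 2 or control 2-month replicate 1, at 0.56 to 0.63 and adjusted p of 0.0518 to 0.0662. *Usp29*, which lies beside *Peg3*, and the amino acid transporter *Slc38a4* fell by 2.31 and 3.02.

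The transcript cluster named *Mir675* measured 11.50, 11.51, 11.47 and 11.68 at P10 and 7.72, 7.73, 7.89 and 7.66 at 2 months, a fall of 3.79 (standard error 0.09, adjusted p = 5.67e-13), against a fall of 3.40 in control nerves. This microRNA is cut from the imprinted H19 transcript, and signal from that host transcript cannot be told apart from the microRNA on such an array. Its mature forms are shown because the gene had the smallest p of the falls. They are taken from RefSeq (GRCm38.p6, chromosome 7, minus strand), at chr7:142577112-142577133 for the 5p arm and chr7:142577078-142577099 for the 3p arm, with the seed, bases 2 to 8, in capitals.
miR-675-5p: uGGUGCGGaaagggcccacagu
miR-675-3p: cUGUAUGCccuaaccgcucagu

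Other large falls were outside the imprinted genes. *Fam107a*, an actin-associated protein, measured 9.77, 9.79, 9.51 and 9.20 at P10 and 7.62, 7.17, 5.86 and 6.14 at 2 months. Replicates 1 and 2 at 2 months lay above replicates 3 and 4, the same split as for *Uty*, and the part of sex in it was not tested. All 4 were below P10, as the rule for these genes required. *Nrk*, a kinase of embryonic tissue, fell by 3.25, and *Mfap2*, a microfibril protein of the matrix, by 2.63. The adhesion receptor gene *Adgrb3* fell by 2.46 and *Tenm1*, a teneurin of axon guidance, by 2.37.

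Cell division genes fell throughout. All 33 measured members of the mitosis list were lower at 2 months, against 15.5% of all genes, and in all 33 the ages did not overlap. The median change was -0.97. *Plk1*, a kinase that drives entry into mitosis, averaged 8.59 ± 0.26 at P10 and 6.79 ± 0.22 at 2 months (SD, n = 4), a fall of 1.79 (standard error 0.14, adjusted p = 9.59e-08). *Mki67*, which encodes the proliferation marker Ki-67, measured 11.45, 11.21, 10.78 and 10.90 at P10 and 9.26, 9.78, 9.65 and 9.56 at 2 months. *Ccna2* (cyclin A2), *Nek2* (a centrosome kinase), *Aspm* (a spindle pole protein) and *Aurkb* (a kinase of chromosome segregation) fell by 1.24, 1.57, 1.63 and 1.30.

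The fall was often steeper in control nerves, where 32 of the 33 were lower with a median of -1.42. There *Ccna2*, *Nek2*, *Mki67* and *Aspm* fell by 2.26, 1.98, 2.52 and 2.10. *Plk1* and *Aurkb* went the other way, with smaller falls of 1.28 and 0.89 in control nerves, and their interactions were not called (adjusted p = 0.123 and 0.304). The interaction passed the test upward in 9 genes, meaning a smaller fall in cKO nerves, and downward in 1, *Anln*. *Anln*, a scaffold of the contractile ring, fell by 0.30 in cKO nerves (standard error 0.10, adjusted p = 0.0281), and that call was lost without P10 replicate 1 or 2 or 2-month replicate 1, 2 or 3, at changes of -0.31 to -0.27 and adjusted p of 0.0541 to 0.0813. *Cdk1*, the kinase of mitotic entry, fell by 0.80 in cKO and by 2.36 in control nerves, with an interaction of 1.56 (standard error 0.26, adjusted p = 0.000372). The mean of the mitosis genes per array was 7.713 to 8.018 at P10 and 6.662 to 6.942 at 2 months in cKO nerves and 6.578 to 6.983 at P10 and 5.199 to 5.436 at 2 months in control nerves. The 2-month cKO arrays thus lay within the range of the P10 control arrays, and well above the 2-month control arrays.

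Promoters are shown for the mitosis genes because they moved together. RefSeq promoters (GRCm38.p6, 250 bases before to 50 after the start) were matched for 27 of the 33 genes, giving 28 promoters. The cell cycle homology region, searched as TTTGAA or TTCGAA on both strands, was present in 23 of the 28 (82.1%) and in 19.2% of all 32851 promoters. The CCAAT box, searched on both strands, was present in 22 (78.6%) and in 37.4% of all. Both are elements known from late cell cycle promoters, and a match is a description of letters only. Promoters to print were chosen with a single chromosome left out. Those of the 2 genes with the smallest p among those holding both elements are printed with the matches in capitals. They are *Plk1* at chr7:122159185-122159484 on the plus strand and *Mki67* at chr7:135716330-135716629 on the minus strand.
Plk1: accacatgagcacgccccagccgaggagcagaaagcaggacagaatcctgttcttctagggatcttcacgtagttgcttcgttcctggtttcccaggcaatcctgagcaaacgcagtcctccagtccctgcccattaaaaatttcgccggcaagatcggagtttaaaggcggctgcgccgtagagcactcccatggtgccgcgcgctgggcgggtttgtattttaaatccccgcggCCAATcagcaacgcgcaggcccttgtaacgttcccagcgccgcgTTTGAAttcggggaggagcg
Mki67: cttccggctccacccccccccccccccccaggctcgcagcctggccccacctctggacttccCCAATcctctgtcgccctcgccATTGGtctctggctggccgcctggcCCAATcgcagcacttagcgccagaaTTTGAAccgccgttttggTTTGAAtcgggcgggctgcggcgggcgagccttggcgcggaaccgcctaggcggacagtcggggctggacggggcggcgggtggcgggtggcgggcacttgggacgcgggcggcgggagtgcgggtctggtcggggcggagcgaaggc

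DNA replication genes followed, with 19 of 29 measured lower, 1 higher and a median of -0.44. Control nerves were much alike, with 17 lower, 0 higher and a median of -0.47. *Rrm2*, a subunit of ribonucleotide reductase, fell by 1.29. *Uhrf1*, which maintains DNA methylation, fell by 1.14, and *Mcm5*, a subunit of the replicative helicase, by 1.05. In control nerves *Rrm2*, *Uhrf1* and *Mcm5* fell by 1.45, 1.32 and 1.00. The exception was *Pcna*, the sliding clamp of DNA polymerases, which measured 10.43, 10.34, 10.58 and 10.52 at P10 and 10.72, 10.76, 10.87 and 10.86 at 2 months. Among G1 cyclins and cyclin-dependent kinase inhibitors 10 of 14 were lower, among them *Cdk2* (-0.87) and the p53-induced inhibitor *Cdkn1a* (-0.99). In control nerves 9 were lower, and *Cdk2* and *Cdkn1a* changed by -0.89 and -1.37.

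*Cdkn2a*, which encodes the cell cycle inhibitor p16 and the p53 activator ARF, was the single member of that list that rose. It measured 5.59, 5.24, 5.05 and 5.44 at P10 and 8.47, 8.01, 7.85 and 8.33 at 2 months, a change of 2.84 (standard error 0.15, adjusted p = 2.01e-09). Control nerves rose by 1.01, and the interaction was 1.83 (standard error 0.33, adjusted p = 0.000779). The array signal does not separate the p16 and ARF transcripts.

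Myelin protein genes fell in cKO nerves, 15 of 17 measured with a median of -0.95, and 1 rose. The fall was shared in part by control nerves, where 12 were lower and 1 was higher, with a median of -0.70. *Mbp*, myelin basic protein, measured 11.94, 12.05, 12.11 and 11.92 at P10 and 10.89, 10.56, 10.62 and 10.53 at 2 months. The fall of 1.35 in cKO nerves compared with a change of -0.19 in control nerves that did not pass the test, and the interaction was -1.17 (standard error 0.14, adjusted p = 1.58e-05). *Cldn19*, the claudin of myelin junctions, fell by 1.85 in cKO and by 1.08 in control nerves, an interaction of -0.77 (standard error 0.16, adjusted p = 0.00269). *Cadm4*, an adhesion protein facing the axon, fell by 1.50 in cKO and by 0.70 in control nerves, an interaction of -0.80 (adjusted p = 0.000643). *Ncmap* and *Cnp*, both known from non-compact myelin, fell by 1.54 and 0.84 in cKO and by 1.04 and 1.19 in control nerves. Neither interaction was called (adjusted p = 0.0839 and 0.223).

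Myelin genes did not all differ from control nerves in the same direction. *Drp2*, a partner of periaxin at the Schwann cell surface, measured 8.64, 8.82, 8.78 and 8.66 at P10 and 8.11, 7.11, 7.16 and 6.92 at 2 months in cKO nerves and rose in control nerves, with values of 10.88 to 11.14 at P10 and 11.61 to 11.75 at 2 months. Its interaction was -2.09 (standard error 0.24, adjusted p = 7.53e-06). *Mag*, the myelin-associated glycoprotein, fell by 1.03 in cKO but by 1.91 in control nerves, an interaction of 0.88 (standard error 0.21, adjusted p = 0.00809). *Cd9*, a tetraspanin of myelin and other membranes, was the member that rose, with values of 10.11, 10.00, 10.54 and 10.08 at P10 and 11.34, 11.03, 11.26 and 11.20 at 2 months. It hardly moved in control nerves (-0.04), and the interaction was 1.07. In all, 3 myelin genes had a called upward and 5 a called downward interaction.

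Enzymes that make myelin galactolipids were among the lipid genes that fell. *Ugt8a*, which adds galactose to ceramide, measured 10.82, 10.77, 10.54 and 10.18 at P10 and 9.02, 8.69, 8.83 and 8.73 at 2 months. Control nerves lay at 12.47 to 12.71 at P10 and 12.30 to 12.69 at 2 months, and the interaction was -1.66 (standard error 0.18, adjusted p = 3.51e-06). *Fa2h*, which hydroxylates their fatty acids, fell by 2.03, and *Gal3st1*, which adds the sulphate of sulphatide, by 1.02. In control nerves *Fa2h* and *Gal3st1* fell by 1.39 and 1.68, and neither interaction was called (adjusted p = 0.0534 and 0.0639). *Degs1*, the desaturase that completes ceramide, moved the other way and rose by 0.61. Of 12 genes of this group 3 were higher and 4 lower in cKO nerves, and 3 were higher and 3 lower in control nerves.

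Cholesterol synthesis showed a different course in the genotypes. In cKO nerves 9 of 19 measured genes were higher and 2 were lower, with a median of 0.26. In control nerves 1 was higher and 11 were lower, with a median of -0.60, and 14 interactions passed the test upward and 0 downward, against 7.69% and 4.59% of all genes. *Insig1*, a sterol sensor induced by the SREBP factors, measured 10.35, 10.20, 10.28 and 10.21 at P10 and 10.93, 10.78, 10.87 and 10.84 at 2 months. It fell by 0.53 in control nerves, and the interaction was 1.13 (standard error 0.13, adjusted p = 8.84e-06).

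*Ebp*, a sterol isomerase, rose by 0.82 in cKO nerves (interaction 1.14), and *Msmo1*, *Sc5d* and *Hsd17b7*, further enzymes of the late pathway, by 0.67, 0.66 and 0.60. *Sc5d* rose in control nerves too, by 0.54, and its interaction was not called (adjusted p = 0.74). *Msmo1* and *Hsd17b7* had called upward interactions of 1.10 and 0.80. *Fdps*, which makes farnesyl diphosphate, changed by 0.41 in cKO and -1.09 in control nerves, an interaction of 1.50. Its change in cKO nerves was close to the threshold (adjusted p = 0.0406), and it was not called without P10 replicate 1, 2 or 4 or any 2-month replicate, at 0.31 to 0.44 and adjusted p of 0.0571 to 0.135. *Srebf2*, the gene for the SREBP-2 factor itself, went against its targets in cKO nerves and fell by 1.05. It also fell in control nerves, by 0.66, and its interaction was not called (adjusted p = 0.072). The mean of the list per array was 9.046 to 9.286 at P10 and 9.333 to 9.454 at 2 months in cKO nerves and 9.76 to 10.05 at P10 and 9.133 to 9.643 at 2 months in control nerves, so the P10 ranges of the genotypes did not overlap while the 2-month ranges did.

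Fatty acid genes were mixed, with 4 of 16 higher and 4 lower in cKO nerves and 2 higher and 6 lower in control nerves. *Acly*, which supplies cytosolic acetyl-CoA, rose by 0.86, and *Scd1*, a desaturase, by 0.73. *Acly* fell in control nerves, and its interaction was 1.47 (standard error 0.26, adjusted p = 0.000851). The elongases *Elovl7* and *Elovl6* fell by 1.76 and 1.08. *Elovl7* changed by -0.05 in control nerves, and its interaction was -1.71 (standard error 0.29, adjusted p = 0.000447). *Elovl6* changed by -0.92 in control nerves, and its interaction was not called (adjusted p = 0.725).

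Schwann cell transcription factors fell in 21 of 28 cases in cKO nerves, with a median of -0.64. In control nerves 10 were lower and 0 higher, with a median of -0.34. *Egr2* (Krox20), which is required for peripheral myelination, measured 10.54, 10.60, 10.25 and 10.23 at P10 and 7.91, 8.60, 7.95 and 7.81 at 2 months, a change of -2.34 (standard error 0.15, adjusted p = 1.28e-08). Control nerves fell by 1.29, and the interaction was -1.04 (standard error 0.22, adjusted p = 0.00366). *Pou3f1* (Oct6), the factor of the promyelinating stage, fell by 1.07 and *Nab2*, a cofactor of Egr2, by 0.89, against falls of 1.36 and 0.81 in control nerves. Factors of the immature Schwann cell fell too, *Sox9* by 1.06 and the Notch target *Hey1* by 0.93, against 0.62 and 1.08 in control nerves. The interactions of *Pou3f1*, *Nab2*, *Sox9* and *Hey1* were not called. *Sox10* fell by 0.43.

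Genes of the non-myelinating and repair Schwann cell went in both directions, with 4 of 23 higher and 7 lower. The adhesion genes *Cdh19* and *Chl1* and the sodium channel gene *Scn7a* rose by 1.24, 1.64 and 1.62, and control nerves rose by 1.73, 1.48 and 1.63. *Btc* (betacellulin), a ligand of ErbB receptors made by Schwann cells after nerve injury, rose by 1.10. *Dhh*, the signal from Schwann cells to the perineurium, fell by 1.09 and *Ncam1*, an adhesion molecule, by 0.77.

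In bulk RNA, more cells of a type and more RNA per cell cannot be told apart. Of 24 measured macrophage genes 21 were higher and 1 was lower, against 17.2% and 15.5% of all genes, with a median of 1.27. *Aif1*, which encodes the macrophage and microglia marker Iba1, measured 4.15, 4.81, 4.88 and 4.87 at P10 and 7.92, 7.43, 7.85 and 7.86 at 2 months. *Tyrobp*, the signalling adaptor of myeloid receptors, measured 5.91, 5.67, 6.54 and 6.28 at P10 and 9.05, 8.43, 8.62 and 8.72 at 2 months. *Trem2*, a lipid-sensing receptor that signals through it, measured 6.21, 6.43, 6.52 and 6.50 at P10 and 8.34, 8.30, 8.27 and 7.75 at 2 months. Each of these genes was separated between the ages in every array. Members of a list were named for a small p or after their values were seen, which favours such separation.

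The Fc receptor gene *Fcgr3* and *Laptm5*, a lysosomal membrane protein of blood cells, rose by 1.89 and 1.43. In control nerves 12 of the 24 were higher, with a median of 0.40, and 15 interactions were called upward. The interaction was 2.61 (standard error 0.28, adjusted p = 3.51e-06) for *Mpeg1*, 2.59 (standard error 0.24, adjusted p = 6.41e-07) for *Ctss*, 2.51 (standard error 0.27, adjusted p = 4.21e-06) for *Aif1*, 1.88 for *Tyrobp* and 1.77 for *Trem2*. *Gpnmb*, a glycoprotein of lipid-laden macrophages and pigment cells, rose by 1.28 in cKO and by 3.09 in control nerves, so its interaction was downward at -1.81.

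Genes of tissue-resident macrophages did not share this course. Only 3 of 11 were higher in cKO nerves, with a median of 0.05, whereas 8 were higher in control nerves, with a median of 0.89, and 4 interactions were called downward and 0 upward. *Cd163*, the haemoglobin scavenger receptor, measured 6.95, 6.13, 6.67 and 6.92 at P10 and 5.98, 7.16, 6.28 and 6.72 at 2 months in cKO nerves. In control nerves it rose, with values of 6.76 to 7.16 at P10 and 7.69 to 8.68 at 2 months, and the interaction was -1.53 (standard error 0.33, adjusted p = 0.00395). *F13a1*, a transglutaminase of resident macrophages, changed by 0.05 in cKO and 1.08 in control nerves (interaction -1.02). *Retnla* and *Mrc1* (CD206), further genes of alternatively activated macrophages, rose by 2.47 and 0.47 in cKO and by 3.48 and 0.90 in control nerves.

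Neutrophil genes rose in 5 of 11 cases and none fell. *Csf3r*, the receptor for granulocyte colony-stimulating factor, measured 6.07, 6.17, 5.71 and 6.04 at P10 and 8.45, 8.48, 8.05 and 8.45 at 2 months. *S100a8*, a calcium-binding alarmin of granulocytes, measured 3.46, 3.78, 3.32 and 2.82 at P10 and 5.39, 4.75, 4.71 and 5.59 at 2 months. Both were separated between the ages, which the naming of list members by small p or by their values favours. The interactions were 1.71 (standard error 0.22, adjusted p = 2.56e-05) and 1.49 (standard error 0.37, adjusted p = 0.0102). *Retnlg* and *S100a9* rose by 1.86 and 1.16. The other 6, granule proteins of immature neutrophils among them, did not pass the test.

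T and natural killer cell genes rose in 14 of 22 cases with no fall, 2 rose in control nerves, and 9 interactions were called upward. *Cd3e*, a chain of the T cell receptor complex, measured 4.78, 4.91, 4.79 and 4.99 at P10 and 6.06, 6.13, 6.04 and 6.40 at 2 months. *Cd8b1*, the CD8 beta chain of cytotoxic T cells, measured 4.92, 5.54, 5.10 and 5.31 at P10 and 6.65, 6.71, 7.16 and 6.79 at 2 months. In control nerves the changes were 0.23 and -0.01, neither of which passed the test, and the interactions were 1.06 (standard error 0.23, adjusted p = 0.00392) and 1.62 (standard error 0.21, adjusted p = 3.37e-05). *Cd28*, a costimulatory receptor, and *Klrk1* (NKG2D), a cytotoxic cell receptor, rose by 1.69 and 1.60. The mean of this list per array was 4.781 to 4.836 at P10 and 5.576 to 5.617 at 2 months in cKO nerves, and 4.704 to 4.84 at P10 and 4.793 to 4.996 at 2 months in control nerves.

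Counting *Jchain*, 7 of 16 B and plasma cell genes rose and 0 fell, while 1 was higher and 2 were lower in control nerves. *Cd22*, an inhibitory receptor of B cells, rose by 1.26 and *Xbp1*, the factor of secretory differentiation, by 0.70. The other 9, surface markers of B cells among them, did not pass the test. Of 10 mast cell genes 6 were higher and 1 lower in cKO nerves, and 4 were higher and 0 lower in control nerves. The protease gene *Cpa3* rose by 1.62 in cKO and 1.39 in control nerves, and the receptor gene *Mrgprb1* rose by 1.24 and 2.11. *Kit*, the stem cell factor receptor of mast and pigment cells, fell by 1.11 in cKO nerves.

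**Figure D3:**
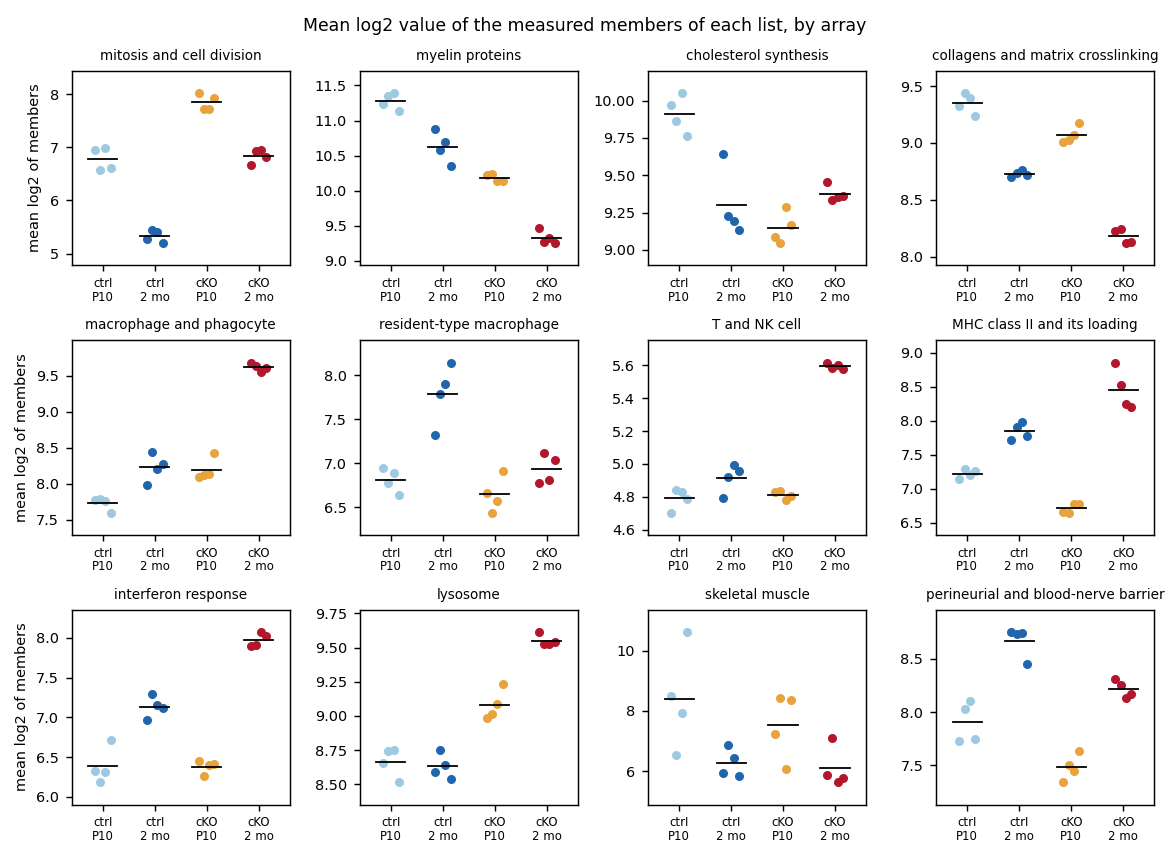
Mean log2 value of the measured members of 12 gene lists, with 1 point per array and a bar at the mean of the 4 arrays of a group. Macrophage, T and NK cell, interferon and lysosome means are highest in the 4 cKO arrays at 2 months, while resident-type macrophage means are highest in the control arrays at 2 months. Skeletal muscle means vary most among the arrays of a group.

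Antigen presentation genes rose. All 11 measured class II genes were higher, with a median of 1.62, and 10 of 11 class I genes, with a median of 1.09. Control nerves shared a part of this rise. There 5 class II genes were higher and 1 lower, with a median of 0.47. Of the class I genes 5 were higher and 0 lower in control nerves, with a median of 0.37. In each list 8 interactions were called upward and 0 downward. *H2-Aa*, a chain of the class II molecule that presents antigen to helper T cells, measured 6.89, 7.23, 7.22 and 7.06 at P10 and 10.92, 10.40, 10.22 and 9.94 at 2 months. Controls rose by 2.49, with an interaction of 0.78 (standard error 0.24, adjusted p = 0.0326). That call was lost without cKO P10 replicate 1, cKO 2-month replicate 1 or 2, control P10 replicate 2 or 3, or control 2-month replicate 1, 3 or 4, at interactions of 0.60 to 0.77 and adjusted p of 0.0551 to 0.0755. *H2-Eb1* and *H2-DMb1*, a class II chain and a chain of the peptide editor, rose by 3.14 and 1.70. *H2-K1*, a class I chain, measured 8.93, 9.11, 9.60 and 9.21 at P10 and 11.43, 11.37, 11.55 and 11.49 at 2 months, with an interaction of 1.12 (standard error 0.20, adjusted p = 0.000945). *H2-D1*, its close relative, rose by 2.26, and *Psmb8*, a subunit of the immunoproteasome, by 1.57. Class I genes are similar in sequence and may share signal.

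All 25 measured interferon response genes were higher at 2 months in cKO nerves, with a median of 1.45. In all 25 the ages did not overlap. *Gbp2*, a guanylate-binding protein induced by interferon gamma, measured 6.10, 5.51, 6.16 and 6.24 at P10 and 8.68, 9.07, 8.87 and 8.63 at 2 months. *Ifit1*, an RNA-binding protein induced by type I interferon, measured 5.70, 4.52, 5.38 and 5.19 at P10 and 8.32, 8.08, 8.58 and 8.42 at 2 months. *Ifit3*, *Gbp4* and *Irgm1*, further inducible genes, rose by 3.17, 2.44 and 1.94. *Cxcl9*, a chemokine for activated T cells, measured 5.79, 5.39, 5.54 and 5.21 at P10 and 7.06, 8.25, 7.25 and 7.13 at 2 months, with replicate 2 at 2 months above the others.

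Control nerves shared a part of the interferon rise, with 17 of 25 higher and a median of 0.68. The interaction was called upward in 14 genes, at 1.01 (standard error 0.25, adjusted p = 0.00928) for *Gbp2* and 2.31 (standard error 0.36, adjusted p = 0.000199) for *Cxcl9*. RefSeq promoters were matched for 20 of the 25 genes, giving 24 promoters. The interferon-stimulated response element, searched on both strands as the letters TTTC, any 2 bases and TTTC again, was present in 13 (54.2%) and in 3.44% of all promoters. Promoters to print were chosen with a single chromosome left out. Those of the 2 genes with the smallest p among those holding the element are printed because the whole list rose, with the matches in capitals. They lie at chr3:142559794-142560093 for Gbp3 and chr3:142620413-142620712 for *Gbp2*, both on the plus strand. The letters were not tested for binding.
Gbp3: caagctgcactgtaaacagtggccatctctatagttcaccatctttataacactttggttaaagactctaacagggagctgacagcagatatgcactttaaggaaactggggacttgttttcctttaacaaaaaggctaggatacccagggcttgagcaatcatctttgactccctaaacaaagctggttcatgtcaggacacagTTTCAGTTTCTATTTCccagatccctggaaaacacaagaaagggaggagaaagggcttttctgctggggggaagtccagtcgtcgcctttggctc
Gbp2: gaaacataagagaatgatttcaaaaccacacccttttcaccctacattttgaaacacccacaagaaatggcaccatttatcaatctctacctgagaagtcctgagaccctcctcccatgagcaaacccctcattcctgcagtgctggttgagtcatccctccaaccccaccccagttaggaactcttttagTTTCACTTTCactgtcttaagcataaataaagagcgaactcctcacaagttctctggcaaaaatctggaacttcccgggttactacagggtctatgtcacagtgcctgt

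Complement genes rose in 14 of 18 cases, and 16 rose in control nerves. *C4b*, a component of the classical pathway that is nearly identical in sequence to C4a, measured 7.50, 7.74, 7.89 and 7.97 at P10 and 11.06, 10.76, 10.66 and 10.91 at 2 months. *C1qa* and *C1qc*, chains of the recognition molecule made by macrophages, rose by 2.00 and 2.11, and the interaction of *C1qa* was 1.48. *C3ar1*, the receptor of the C3a fragment, rose by 2.09. Chemokine and cytokine genes rose in 22 of 35 cases and fell in 2. *Ccl2*, which recruits monocytes, and its receptor gene *Ccr2* rose by 1.78 and 2.94, and *Ccr2* rose by 2.71 in controls. *Cxcl16*, *Ccl3* and *Ccl8* rose by 2.45, 1.82 and 2.03. *Cxcl12*, a chemokine of stromal cells, fell by 1.11.

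Of 28 collagens and crosslinking enzymes 20 were lower and 1 was higher, with a median of -0.91, and control nerves had a median of -0.87. *Col1a1*, the main chain of type I collagen, measured 12.17, 12.22, 12.46 and 12.57 at P10 and 10.14, 10.20, 10.03 and 9.94 at 2 months. *Col5a1*, *Col6a1* and *Col4a2*, chains of fibrils, microfibrils and basement membrane, fell by 2.06, 1.48 and 1.62. Among 29 other matrix and matricellular proteins 14 were lower, 6 higher and 9 not called, with a median of -0.26. *Lamb1*, a laminin chain, *Eln*, elastin, and *Fbn2*, a fibrillin of young tissue, fell by 1.51, 1.47 and 1.87. The small proteoglycans *Lum* and *Dcn* rose by 1.29 and 0.85.

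*Lox*, the enzyme that crosslinks collagen and elastin, parted from the control course. It measured 9.24, 9.27, 8.96 and 9.56 at P10 and 7.27, 7.99, 7.62 and 7.88 at 2 months in cKO nerves, a change of -1.57 (standard error 0.15, adjusted p = 1.08e-06). In control nerves it rose, with values of 9.88 to 10.33 at P10 and 10.99 to 11.53 at 2 months, a change of 1.23 (adjusted p = 2.19e-05), and the interaction was -2.80 (standard error 0.22, adjusted p = 1.09e-07). *Timp1*, an inhibitor of metalloproteinases induced in injured tissue, measured 5.51, 5.55, 5.47 and 5.51 at P10 and 7.73, 6.64, 6.91 and 6.93 at 2 months, while control nerves changed by -0.10, an interaction of 1.64 (standard error 0.35, adjusted p = 0.00332). Of 18 matrix proteases and inhibitors 5 were higher and 4 lower. *Timp3* fell by 0.75, the protease genes *Mmp19* and *Plau* rose by 1.24 and 1.24, and *Adamts5*, an aggrecanase, fell by 0.81.

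Endothelial genes were lower in 11 of 15 cases in cKO and in 13 in control nerves, led by the receptor gene *Kdr* (-1.88) and the factor *Erg* (-1.48). Perineurial and barrier genes were higher in 9 of 12 cases in cKO and in 10 in control nerves, with *Abcb1a*, an efflux pump, at 1.77, the tight junction gene *Cldn1* at 0.98 and the glucose transporter gene *Slc2a1* at 1.19. *Abcc9*, a channel subunit of pericytes, fell by 1.43. The adipocyte genes *Retn* and *Adipoq* rose by 1.41 and 1.11, and 9 of 13 members did not pass the test.

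Skeletal muscle genes were lower in 18 of 28 cases, but with large differences between arrays. *Acta1*, the actin of muscle fibres, measured 9.30, 11.04, 6.87 and 10.92 at P10 and 5.63, 8.24, 5.30 and 5.91 at 2 months. *Mylpf*, a myosin light chain, measured 7.29, 9.19, 5.94 and 9.49 at P10 and 4.41, 6.62, 3.34 and 4.46 at 2 months. The ages overlapped in both, with replicate 3 low at P10 and replicate 2 high at 2 months. The mean of the list per array was 6.068 to 8.44 at P10 and 5.637 to 7.113 at 2 months in cKO nerves, and it fell in control nerves too, with means of 6.539 to 10.62 at P10 and 5.842 to 6.854 at 2 months. The 18 lower calls were 9, 10, 9 and 10 without P10 replicate 2, P10 replicate 4, 2-month replicate 3 and 2-month replicate 4, and 7 when the spread was estimated from all 16 arrays. The part of muscle RNA in other results was not tested.

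Of 12 cytoskeletal genes of axons 3 were higher and 1 lower, with *Stmn2*, a microtubule regulator, at 0.60 and *Nefh*, the heavy neurofilament chain, at -0.38. *Nefl* and *Snap25*, neurofilament light chain and a vesicle fusion protein, changed by 0.03 and 0.03 in cKO nerves, and neither passed the test. Both were higher with age in control nerves, by 1.05 and 1.16, and the interactions were -1.01 (standard error 0.31, adjusted p = 0.0335) and -1.13 (standard error 0.24, adjusted p = 0.00363). Without any one of cKO P10 replicates 1 and 4, cKO 2-month replicates 1 to 3, control P10 replicates 1 and 4 and control 2-month replicates 1 and 2, the interaction of *Nefl* was not called, at -1.02 to -0.86 and adjusted p of 0.0531 to 0.0751. The fall of *Nefh* was not called without 2-month replicate 2 (-0.33, adjusted p = 0.0664) or 3 (-0.33, adjusted p = 0.0704). Of 12 genes of synapses and vesicle release 1 was higher and 3 were lower, with a median of -0.06. *Gria1*, an AMPA receptor subunit, measured 5.94, 5.61, 6.01 and 5.50 at P10 and 8.73, 7.72, 7.28 and 7.30 at 2 months, and control nerves changed by 0.40 (interaction 1.60).

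Among nodal proteins and ion channels 9 of 18 were lower. *Kcna1*, the potassium channel beside the node of Ranvier, lay at 9.77 to 10.46 at P10 and 7.87 to 8.07 at 2 months. It fell by 2.16 in cKO and 0.70 in control nerves, an interaction of -1.46 (standard error 0.18, adjusted p = 2.54e-05). *Kcnj13*, a potassium channel, rose by 2.15 in cKO and 2.68 in control nerves.

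Autophagy genes did not move as a group, with 8 of 31 higher, 3 lower and a median of 0.07. *Atg12* and *Atg5*, which form the conjugate that drives LC3 lipidation, rose by 0.83 and 0.61, and *Map1lc3b* (LC3B) rose by 0.67. *Wipi1*, a phosphoinositide-binding protein of the autophagosome, fell by 0.95. Lysosomal genes were higher in 17 of 33 cases and lower in 2, and in control nerves 4 were higher and 7 lower, with 15 interactions called upward and 0 downward. *Ctsh*, a cathepsin, measured 7.23, 6.93, 7.46 and 7.62 at P10 and 9.62, 9.18, 9.51 and 9.40 at 2 months, with an interaction of 1.69 (standard error 0.20, adjusted p = 1.37e-05). *Gla* and *Lipa*, which degrade glycolipids and cholesteryl esters, rose by 1.18 and 0.78. Several lysosomal genes, *Ctss* among them, are abundant in macrophages, whose markers rose in the same arrays, and the part of these cells in the lysosomal rise was not tested.

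Stress genes were divided. Among NRF2 targets 4 of 13 rose and 3 fell, with the cystine transporter gene *Slc7a11* at 1.32. In control nerves 6 of them were higher and 2 lower, and 1 interaction was called upward and 2 downward. In the integrated stress response 5 of 15 rose and 5 fell, with the asparagine synthetase gene *Asns* at 0.94. Control nerves had 0 higher and 4 lower, and 5 interactions were called upward and 1 downward. Of 13 genes for chaperones of the endoplasmic reticulum 5 rose, while 2 were higher and 2 lower in control nerves. Their interactions were called upward in 3 and downward in 0. Of 13 p53 targets 8 rose, with *Eda2r* at 1.62 and *Ccng1*, cyclin G1, at 1.19, while *Cdkn1a* fell as given above. In control nerves 5 p53 targets were higher and 1 lower, and 4 interactions were called upward and 1 downward.

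In the TGF-beta and BMP list 5 of 18 genes rose and 3 fell. *Tgfbr1*, the signalling receptor of TGF-beta, measured 8.77, 8.85, 8.52 and 8.78 at P10 and 10.46, 10.18, 10.37 and 10.28 at 2 months. It changed by -0.08 in control nerves, and the interaction was 1.67 (standard error 0.17, adjusted p = 1.99e-06). *Skil*, a feedback inhibitor of the pathway, rose by 1.22. Among Wnt genes 6 of 14 fell and 2 rose. The secreted Wnt antagonists differed among themselves. *Wif1* rose by 1.26, *Sfrp1* fell by 1.56 and *Frzb* measured 6.36, 6.39, 6.24 and 6.44 at P10 and 4.68, 4.34, 4.43 and 4.86 at 2 months. *Frzb* rose in control nerves, with values of 7.93 to 8.55 at P10 and 8.61 to 9.96 at 2 months, and its interaction was -2.74 (standard error 0.29, adjusted p = 3.5e-06). Of 15 clock genes 3 rose and 6 fell.

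Pigment-cell genes were divided. *Tyrp1*, a melanin enzyme, measured 12.66, 12.74, 12.72 and 12.62 at P10 and 13.24, 13.21, 13.31 and 13.28 at 2 months in cKO nerves and 4.17 to 6.16 at P10 and 4.57 to 11.66 at 2 months in control nerves. All 8 cKO arrays lay above all 8 control arrays. Its call as higher (adjusted p = 7.03e-05) was lost when the spread was estimated from all 16 arrays (adjusted p = 0.668). *Dct*, a second enzyme of the same pathway, fell in cKO nerves, with values of 8.23, 8.45, 8.67 and 8.61 at P10 and 6.40, 7.41, 7.32 and 7.31 at 2 months, a change of -1.38. The interaction of *Dct* was -1.66 (standard error 0.29, adjusted p = 0.000774). Of the 17 members 4 rose, 5 fell and 8 did not pass the test.

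The change with age was then set against that of control nerves, which shared no array with it. In control nerves 2363 genes (12.1%) were higher and 2459 (12.6%) were lower at 2 months. Across the 19505 genes the changes of both genotypes correlated at r = 0.626 (Spearman's rho = 0.504), a description in which genes are not independent replicates. Of the genes higher in cKO nerves 1327 were also higher in control nerves, which is 39.6% of the cKO and 56.2% of the control calls. Among genes lower in cKO nerves, 1473 were also lower in control nerves, 48.8% of the cKO and 59.9% of the control calls. The interaction passed the test upward in 1499 genes (7.69%) and downward in 895 (4.59%), a split that narrowed to 1193 against 1148 after a further quantile normalization of the arrays.

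**Figure D4:**
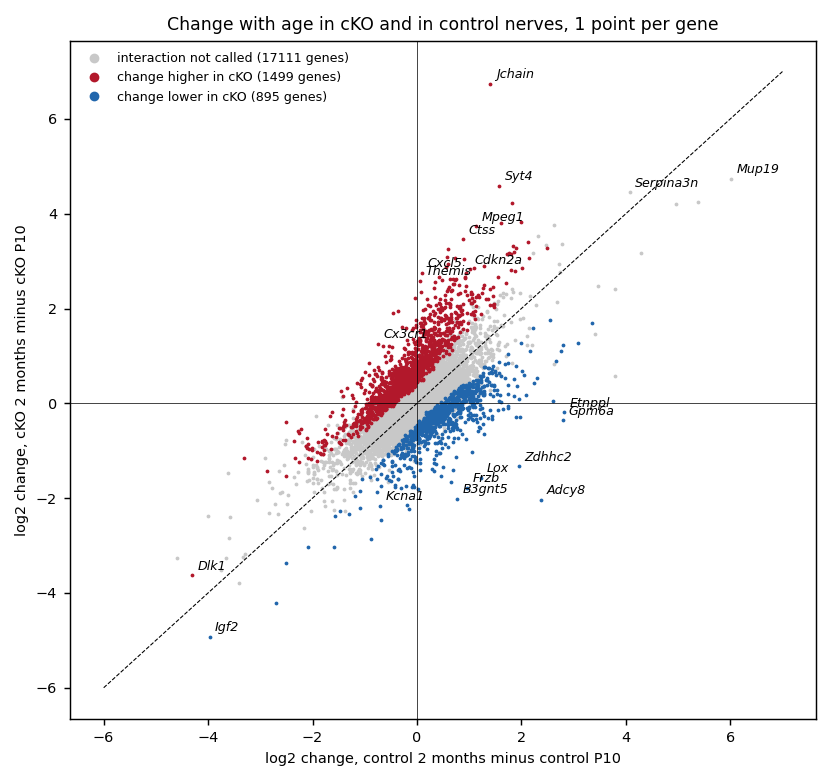
Log2 change from P10 to 2 months in control nerves (horizontal) and in cKO nerves (vertical), with 1 point per gene and a dashed line of equal change. Red points mark the 1499 genes and blue points the 895 genes whose interaction was called upward or downward, with leading genes named.

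Among the 1937 genes that were higher in cKO nerves and not called in controls, 749 had a called upward interaction. Among the 1477 that were lower in cKO nerves and not called in controls, 275 had a called downward interaction. In the other direction, 362 of 965 genes higher in control nerves alone and 321 of 898 lower in control nerves alone had a called interaction. For the rest, a call in a single genotype does not show that the genotypes differed.

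The largest upward interaction was that of *Jchain*, at 5.33 (standard error 0.64, adjusted p = 1.58e-05), followed by *Syt4* at 3.02 (standard error 0.35, adjusted p = 9.46e-06). *Cxcl5*, a chemokine that attracts neutrophils, measured 4.46, 4.46, 5.21 and 4.78 at P10 and 7.84, 7.24, 7.05 and 7.81 at 2 months in cKO nerves. Control nerves changed by 0.09, and the interaction was 2.67 (standard error 0.34, adjusted p = 2.69e-05). *Themis*, a signalling protein of T cells, and *Ms4a4b*, a membrane protein of T cells, followed with 2.52 (standard error 0.20, adjusted p = 1.56e-07) and 2.65 (standard error 0.24, adjusted p = 4.93e-07). *Slamf7* had an interaction of 2.40. *Fabp5*, a fatty acid carrier of macrophages and injured Schwann cells, changed by 1.90 in cKO and -0.46 in control nerves, an interaction of 2.35 (standard error 0.33, adjusted p = 8.22e-05).

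The largest downward interactions were in genes that rose in control nerves and did not rise in cKO nerves. *Adcy8*, an adenylate cyclase, measured 6.47, 6.42, 6.11 and 6.09 at P10 and 4.44, 4.07, 4.14 and 4.32 at 2 months in cKO nerves. In control nerves it rose, with values of 5.86 to 6.02 at P10 and 7.84 to 8.87 at 2 months, and the interaction was -4.42 (standard error 0.24, adjusted p = 2.49e-10). *Zdhhc2*, a protein palmitoyltransferase, fell by 1.32 in cKO and rose by 1.95 in control nerves (interaction -3.28). *Gpm6a*, a membrane glycoprotein related to the proteolipid protein of myelin, fell by 0.35 in cKO and rose by 2.80 in control nerves (interaction -3.15).

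*Etnppl*, an enzyme of ethanolamine phosphate breakdown, *Myo3a*, a myosin with a kinase domain, and *Them5*, a mitochondrial thioesterase, did not pass the test in cKO nerves, at -0.19, 0.06 and -0.30. Without P10 replicate 3 the change of *Them5* was -0.44 and passed the test (adjusted p = 0.0408). These genes rose by 2.82, 2.60 and 1.97 in control nerves, with interactions of -3.00, -2.55 and -2.27. *B3gnt5*, a glycolipid synthase, measured 7.46, 7.24, 7.21 and 6.99 at P10 and 4.95, 5.15, 5.45 and 5.32 at 2 months in cKO nerves, and its interaction was -2.79 (standard error 0.28, adjusted p = 2.17e-06). *Rimklb*, an enzyme that makes N-acetylaspartylglutamate, fell by 1.66 in cKO and rose by 0.64 in control nerves (interaction -2.30).

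Genes called in opposite directions numbered 88 that rose in cKO and fell in control nerves and 71 that fell in cKO and rose in control nerves. The interaction was called in all of them, which opposite calls on the same arrays make likely in advance. *Cx3cr1*, the fractalkine receptor of macrophages, measured 7.66, 7.90, 7.92 and 8.49 at P10 and 9.16, 9.42, 9.26 and 9.18 at 2 months in cKO nerves. In control nerves it fell, with values of 7.41 to 7.70 at P10 and 6.58 to 7.33 at 2 months, and the interaction was 2.01 (standard error 0.23, adjusted p = 1.01e-05). *Mexis*, a long noncoding RNA of mouse macrophages that aids cholesterol efflux, rose by 0.84 in cKO and fell by 0.92 in control nerves (interaction 1.76). *Pde4b*, a cyclic AMP phosphodiesterase of immune cells, rose by 0.77 and fell by 0.75 (interaction 1.52).

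*Thbs2*, a matricellular protein of fibroblasts, rose by 0.71 in cKO and fell by 0.83 in control nerves (interaction 1.53), and *Cacna1d*, a calcium channel, by 0.71 and 0.72 (interaction 1.43). In the opposite sense stood *Adcy8*, *Zdhhc2*, *Lox* and *Frzb*, described above, and *Cd55b*. *Cd55b*, a complement regulator closely related in sequence to Cd55, fell by 1.02 in cKO and rose by 1.05 in control nerves, an interaction of -2.07 (standard error 0.20, adjusted p = 9.06e-07).

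**Figure D5:**
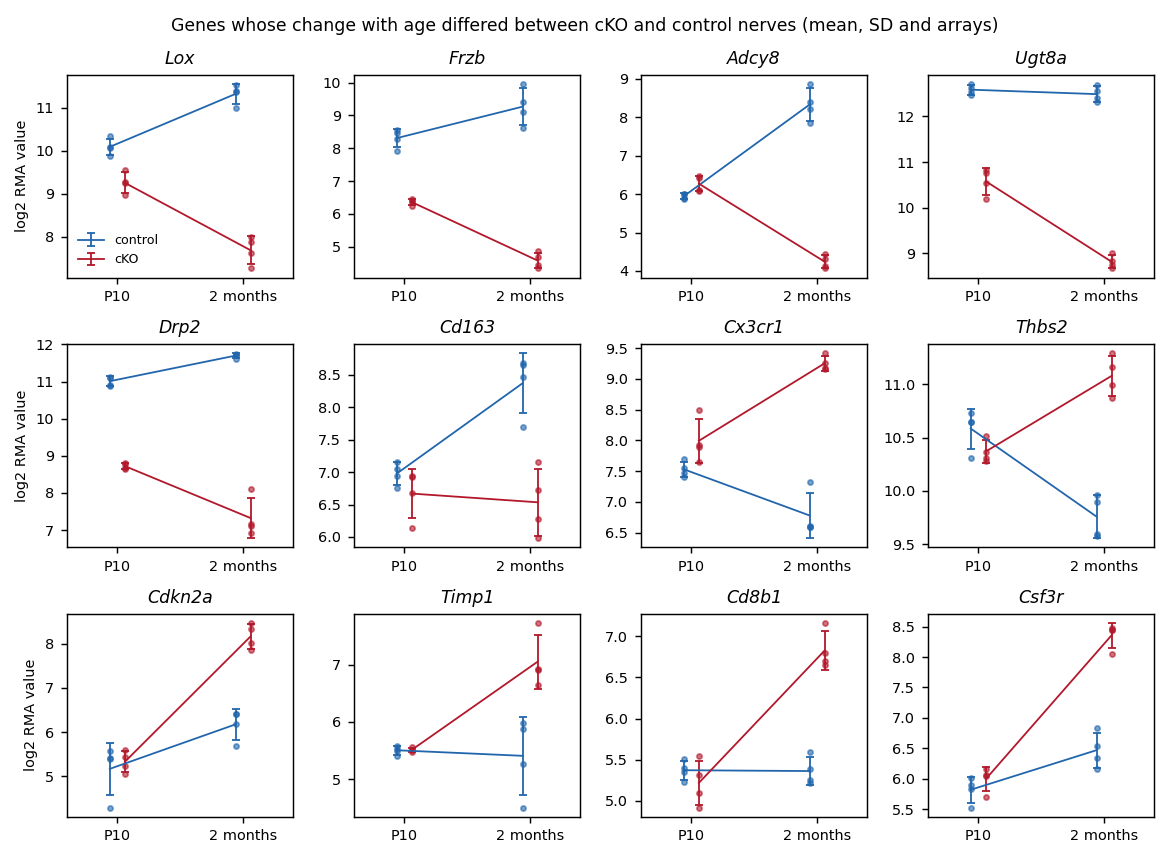
Log2 RMA values of 12 genes with a called interaction at P10 and 2 months, with control nerves in blue and cKO nerves in red. Points are arrays, lines join the group means and bars are the SD of 4 arrays. *Lox*, *Frzb*, *Adcy8* and *Drp2* fell in cKO and rose in control nerves, and *Cx3cr1* and *Thbs2* did the reverse.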

How the data were processed

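RNA of 16 sciatic nerve samples was hybridised to Clariom S mouse arrays. The authors normalised the arrays by RMA in the Transcriptome Analysis Console and deposited 1 log2 value per transcript cluster, with genes named from the platform annotation, whose genome build is not given in the sources used here. Such values compress differences of dim or saturated probes, and no scanner file was used here. A symbol with several clusters took the values of the one with the highest mean. Changes were tested with limma 3.58.1 in R 4.3.3 (lmFit and eBayes with an intensity trend, two-sided) on the 8 cKO arrays, on the 8 control arrays and, for the interaction, on all 16, with Benjamini-Hochberg adjustment over 19505 genes and a threshold of 0.05. The code was tested on simulated data. Groups came from the sample titles. Arrays with the same replicate number did not deviate together (correlations of -0.09 to 0.09), so they were not paired. Sex, which followed the replicate number by *Uty*, was not a term of the main model.

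The members and the 44 gene lists (774 genes measured) were chosen with earlier results of these data known. Genes were named by rule: *Becn1* and *Sqstm1*, up to 15 called genes with the largest change in each direction without overlap, up to 10 with the largest interaction in each direction, up to 5 called in opposite directions, and up to 6 per list with the smallest p. Other named genes, such as *Anln*, *Cdk1*, *Pcna*, *Drp2*, *Mag*, *Sox10*, *Fdps*, *Trem2*, *Cd163*, *F13a1*, *Ifit1*, *Cxcl9*, *Nefl* and *Snap25*, were chosen after their values were seen. Alternatives covered the arrays in the fit, scaling, dim genes, transcript clusters, the variance model, array weights, a fold threshold, the genes tested, a replicate block and leaving out each array.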

Additional observations from a re-analysis of the deposited data

Results flagged for a closer look

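The highest or lowest array of a group of 4 was compared with its neighbour for 195 named genes in both cKO groups, 390 groups in all, and chance alone marks about 1 in 20 such groups. In 21 groups a single array lay apart from the other 3 by more than Dixon's critical share of the range of the group. At P10, replicate 3 lay apart in *Acly* (9.85), *Slc38a4* (7.50) and *Nab2* (8.55), replicate 1 in *Aif1* (4.15) and *Kdr* (8.97), replicate 2 in *Mrgprb1* (3.92) and replicate 4 in *Cxcl16* (7.05). At 2 months, replicate 1 lay apart in *Dct* (6.40), *Serpina3n* (10.98), *Tenm1* (4.74), *Mcm5* (6.70), *Ncmap* (7.72) and *Kit* (7.81). Replicate 2 at that age lay apart in *Aif1* (7.43), *Egr2* (8.60), *Cxcl9* (8.25), *Usp29* (3.69), *Uhrf1* (8.39) and *Col5a1* (7.19), replicate 3 in *Csf3r* (8.05) and replicate 4 in *Trem2* (7.75).

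The change with age differed between the genotypes, by the interaction test over all genes, in 63 of the named genes, which were chosen in part for that difference. The log2 difference, cKO minus control, was positive for *Jchain* 5.33, *Syt4* 3.02, *Cxcl5* 2.67, *Ms4a4b* 2.65, *Mpeg1* 2.61, *Ctss* 2.59, *Themis* 2.52, *Aif1* 2.51, *Slamf7* 2.40, *Fabp5* 2.35, *Cxcl9* 2.31 and *Cx3cr1* 2.01. It was also positive for *Tyrobp* 1.88, *Cdkn2a* 1.83, *Trem2* 1.77, *Mexis* 1.76, *Csf3r* 1.71, *Ctsh* 1.69, *Tgfbr1* 1.67, *Timp1* 1.64, *Cd8b1* 1.62, *Gria1* 1.60, *Cdk1* 1.56 and *Thbs2* 1.53. It was also positive for *Pde4b* 1.52, *Fdps* 1.50, *S100a8* 1.49, *C1qa* 1.48, *Acly* 1.47, *Cacna1d* 1.43, *Ebp* 1.14, *Insig1* 1.13, *H2-K1* 1.12, *Cd9* 1.07, *Cd3e* 1.06 and *Gbp2* 1.01. It was also positive for *Mag* 0.88, *H2-Aa* 0.78 and *Dlk1* 0.68. The difference was negative for *Adcy8* -4.42, *Zdhhc2* -3.28, *Gpm6a* -3.15, *Etnppl* -3.00, *Lox* -2.80, *B3gnt5* -2.79, *Frzb* -2.74, *Myo3a* -2.55, *Rimklb* -2.30, *Them5* -2.27, *Drp2* -2.09 and *Cd55b* -2.07. It was also negative for *Gpnmb* -1.81, *Ugt8a* -1.66, *Dct* -1.66, *Cd163* -1.53, *Kcna1* -1.46, *Mbp* -1.17, *Snap25* -1.13, *Egr2* -1.04, *F13a1* -1.02, *Nefl* -1.01, *Igf2* -0.95 and *Cldn19* -0.77.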

How the results depend on the processing

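Each alternative changed 1 choice. The counts of 3352 higher and 3021 lower genes in cKO nerves moved by more than 1.5 times with a required log2 change of at least 1 (668 and 369) and among the 5000 most variable genes, where fewer were tested (1907 and 1651). The same change threshold gave 379 upward and 202 downward interactions. Leaving out 1 array gave 2856 to 3321 higher and 2456 to 2899 lower genes in cKO nerves, 1893 to 2212 and 1975 to 2419 in control nerves, and 1100 to 1659 upward and 632 to 1009 downward interactions. Centring the arrays or a further quantile normalization moved the median of all genes by 0.01. With the replicate number as a replicate block the counts were 3085 and 2715 in cKO nerves and 1391 and 838 for the interaction, and *Anln* was the single named gene of the cKO comparison that lost its call (adjusted p = 0.0697).

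Of the 195 named genes, 5 that were not called in cKO nerves turned their direction under some setting, and the cause was not tested. *F13a1* was -0.0034 after quantile normalization and -0.032 to 0.17 without 1 array. Leaving out 1 array gave -0.023 to 0.23 for *Myo3a*, -0.34 to 0.049 for *Cd163*, -0.016 to 0.091 for *Snap25* and -0.056 to 0.11 for *Nefl*. No named interaction turned. With unmoderated linear models on all 16 arrays 8 named genes lost the call in cKO nerves, and 5 lost the interaction call. Among the 8 were *Mylpf*, *Acta1*, *Adipoq* and *Gpm6a* (adjusted p = 0.0504, 0.0522, 0.0757 and 0.0564). Also among them were *Anln*, *Fdps* and *Tyrp1*, which lost the call with moderation kept and all 16 arrays in the fit (adjusted p = 0.147, 0.0698 and 0.668). The number of arrays, 4 in each group, limits the precision of every value.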
